A study of Mus musculus with 6 samples.

Results

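Semaphorins are guidance ligands that steer growing axons, vessels and migrating cells, and plexins are their receptors. The secreted ligands of class 3 mostly need a neuropilin, which binds the ligand while a plexin signals, whereas membrane-bound semaphorins bind plexins directly. In fat, the family is known for its part in guiding the sympathetic nerves and vessels that reach adipocytes. The genes described here are the 31 of 13962 in the deposited count table that encode semaphorins, plexins, neuropilins or the plexin domain containing proteins. They were taken by gene name, with the counts used only to choose between rows of the same name, which no member needed. They comprise 7 class 3 semaphorins, 11 membrane-bound ones, 9 plexins, the neuropilin pair Nrp1 and Nrp2, and the pair Plxdc1 and Plxdc2. Sema4d and Sema4f were not analysed here. The fall of Sema3a was already known when the genes were chosen, so the counts of changed members describe this family and nothing is read from them about how it compares with other genes.

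The data are poly(A) RNA counts from mouse beige adipocytes, which are fat cells of white depots that can produce heat. All 6 libraries came from C57BL/6 preadipocytes of inguinal fat with the genotype TLE3F/F CreERT2. Both Tle3 alleles were floxed, the Cre recombinase was tamoxifen-inducible, and the cells had been immortalized by large T antigen. Cells were differentiated in insulin (20 nM), T3 (1 nM) and rosiglitazone (1 uM), with isobutylmethylxanthine, dexamethasone and indomethacin added at the start. Those labelled TLE3 knockout (n = 3) received 4-hydroxytamoxifen (500 nM; 1 label says only tamoxifen) and the controls (n = 3) ethanol, on day 4 for 24 hours, and all were harvested on day 10. No sample of tamoxifen-treated cells without Cre was analysed here, so the compound and Cre activity cannot be told apart from the deletion. Nothing says that replicates were separate cultures, and the p-values cover only the spread among the 6 libraries, some or all of which may be technical.

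Total counts were 14606228 to 15933996 in the labelled knockout and 14832434 to 19294632 in the controls, and the 31 genes together took 26297 to 28265 of them in the labelled knockout and 27218 to 36417 in the controls. Tle3 itself stood at 290 ± 3.76 CPM (a count divided by its TMM-scaled library total, in the usual per-million unit) in the labelled knockout and 152 ± 0.434 CPM in controls (SD, n = 3 each), higher in the labelled knockout (edgeR adjusted p 3.54e-07). Reads from exons outside the floxed part would still count towards Tle3, and only whole-gene counts were used, so this value does not check the label. Why Tle3 was higher was not tested, and every direction below rests on the labels. Adipocyte markers were abundant, with 8 genes summing to 10148 to 11681 CPM in the labelled knockout and 9210 to 10958 CPM in controls. Of these 8, the leptin gene Lep rose, at 20.2 ± 2.13 CPM in the labelled knockout and 9.85 ± 0.517 CPM in controls (log2 1.03; edgeR adjusted p 0.000124). The other 7 were not called. Of the 8, 7 had an unadjusted edgeR p under 0.05, as did 3674 of all 13192 tested genes. Lpl and Cfd were lower and the rest higher in the labelled knockout. Endothelial and macrophage markers were near absent. The 6 endothelial genes analysed summed to 6.98 to 8.73 CPM in the labelled knockout and 6.02 to 7.50 CPM in controls. The 4 macrophage genes summed to 6.70 to 8.16 CPM in the labelled knockout and 5.48 to 7.40 CPM in controls.

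Of the 31 genes, 29 passed the expression filter, and 3 rose and 5 fell in the labelled knockout at an adjusted p under 0.05 in edgeR's quasi-likelihood test. These are 10.3% and 17.2% of the tested members, while 6.91% of all 13192 tested genes rose and 5.44% fell (12.3% in either direction). Sema3a, Sema3d, Sema4b, Sema6b and Plxdc2 fell, and Sema4a, Plxna1 and Plxnd1 rose. The median log2 fold change was −0.03 over the 29 genes and −0.0025 over all tested genes. Groups did not overlap for 6 members that were higher (20.7%; 16.0% of all tested genes) and 5 that were lower (17.2%; 15.8% of all tested genes), shares near those of all genes. Plxna4 and Plxnc1 were below the filter, with 1 to 10 and 3 to 13 counts per library.

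**Figure D1:**
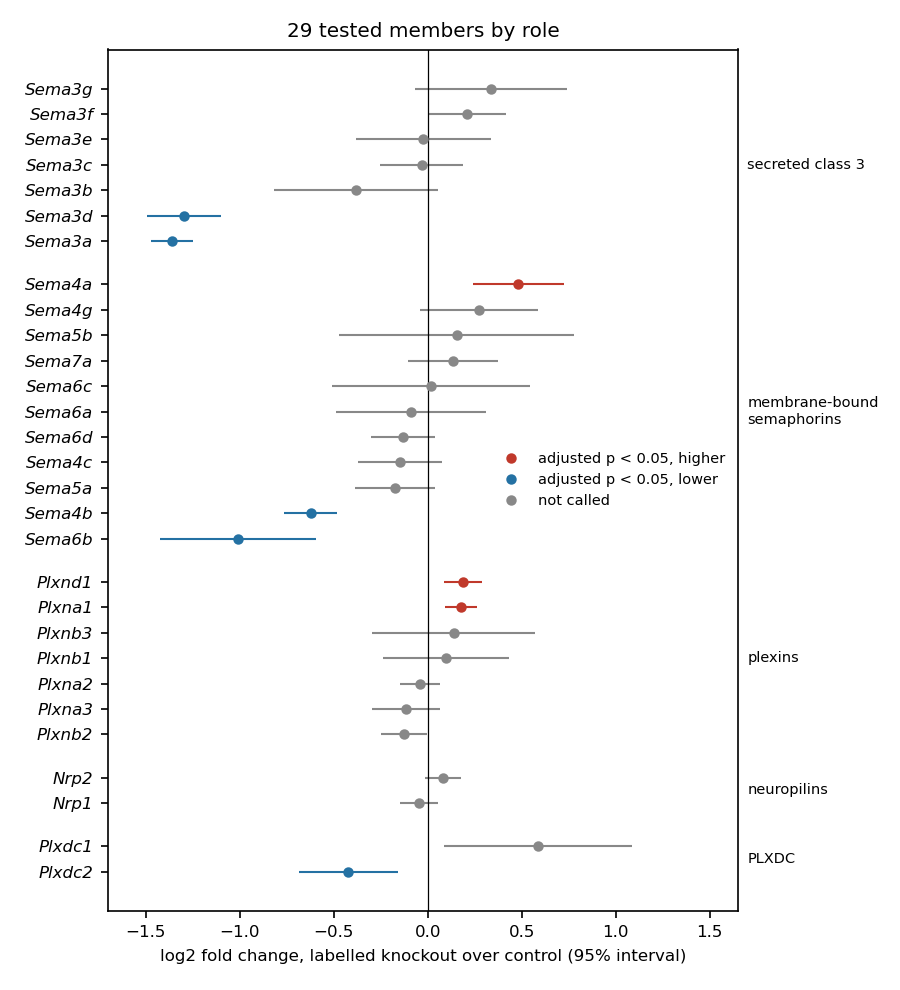
Log2 fold change (labelled knockout over control) of the 29 tested members on the x axis, with 95% intervals from the edgeR fit, grouped by role down the page; colours mark the call at an adjusted p under 0.05. Sema3a and Sema3d lie apart from the other class 3 ligands at −1.36 and −1.30, and Nrp1 and Nrp2 lie at −0.05 and 0.08.

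Among the secreted ligands, the main change was a fall of Sema3a and Sema3d. Sema3a, whose protein collapses growth cones through Nrp1 and class A plexins and repels sympathetic axons, had 34.1, 35.7 and 32.9 CPM in labelled-knockout libraries 1 to 3, against 89.4, 84.5 and 89.8 CPM in controls 1 to 3. Every labelled-knockout library lay below every control, by more than the spread within either group. The means were 34.2 ± 1.37 CPM in the labelled knockout and 87.9 ± 2.99 CPM in controls, a fold of 0.389 (log2 −1.36, SE 0.051, 95% interval −1.47 to −1.25; edgeR adjusted p 2.87e-07). Counted from the most negative log2 fold change, Sema3a was number 32 of the 13192 tested genes. Its fall was known when the genes were chosen, so its rank and adjusted p describe it and are not independent support.

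Sema3d, a secreted ligand known from heart and vessel patterning, followed closely. It had 16.3, 12.7 and 15.3 CPM in labelled-knockout libraries 1 to 3, against 37.6, 33.6 and 37.9 CPM in controls 1 to 3. Again the groups were far apart. The fold was 0.407 (log2 −1.30, SE 0.09, 95% interval −1.50 to −1.10; edgeR adjusted p 1.75e-05), which placed it at number 42. The intervals of Sema3a and Sema3d overlap, and the 2 falls were not tested against each other. Both calls held without each library in turn and under all other settings tried.

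The other 5 class 3 ligands were not called. Sema3c, which guides cardiac neural crest and has been described as an adipokine in human fat, had 66.2, 52.5 and 57.7 CPM in labelled-knockout libraries 1 to 3 and 58.6, 52.4 and 69.0 CPM in controls 1 to 3. These ranges overlap almost wholly (log2 −0.03, 95% interval −0.25 to 0.19; edgeR adjusted p 0.871). Sema3g, a ligand of Nrp2, had 34.5, 52.0 and 39.8 CPM in labelled-knockout libraries 1 to 3 and 33.9, 42.8 and 24.1 CPM in controls 1 to 3. The groups overlap, and its 95% interval ran from −0.07 to 0.74 (adjusted p 0.266). Sema3f, another Nrp2 ligand, was at 12.6 ± 1.08 CPM in the labelled knockout and 10.8 ± 0.350 CPM in controls with no overlap (adjusted p 0.168). Sema3b stood at 4.40 ± 0.697 CPM in the labelled knockout and 5.69 ± 1.53 CPM in controls (adjusted p 0.240). Sema3e, which binds Plxnd1 without a neuropilin, stood at 4.07 ± 0.662 CPM in the labelled knockout and 4.14 ± 0.503 CPM in controls (adjusted p 0.946).

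**Figure D2:**
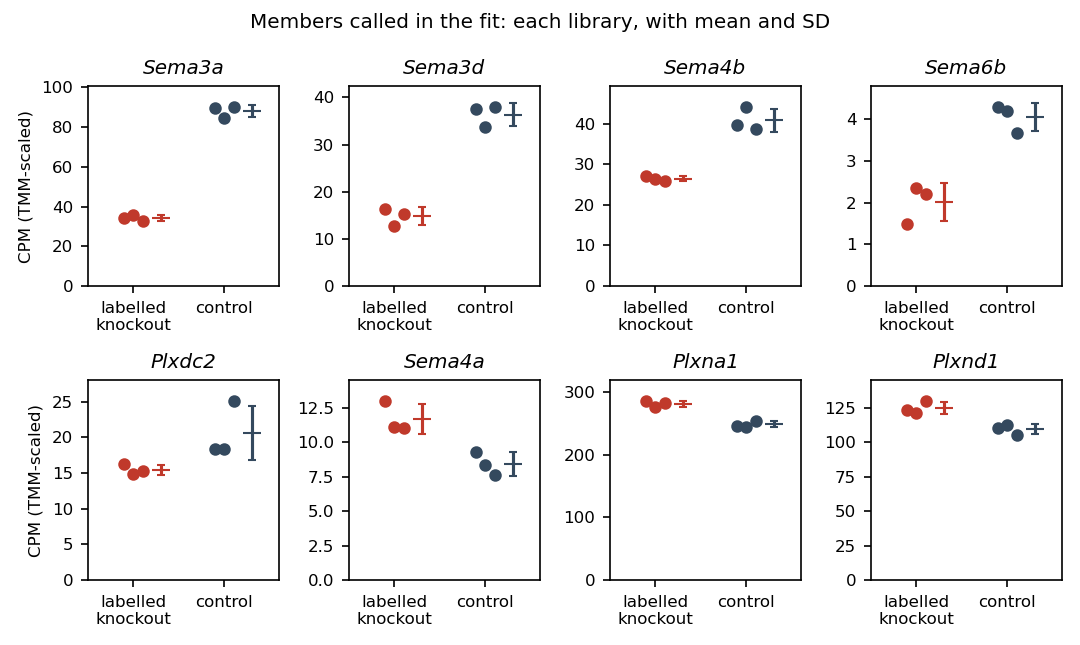
CPM on TMM-scaled library sizes (y axis, from 0) of the 8 members called in the fit, with 1 point for each of the 3 labelled-knockout libraries (left) and 3 control libraries (right), and the mean with SD beside them. The groups are separate for each gene, widely so for Sema3a and Sema3d and narrowly for Plxna1 and Plxnd1.

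The make-up of the class 3 pool shifted with the falls of Sema3a and Sema3d. The shares below are computed from the same values, so they restate those falls and are not a separate result. To compare levels between genes, CPM was divided by the exon length in kilobases (GENCODE M21), giving RPKM. Summed over the 7 genes, the pool was 25.5 ± 0.923 RPKM in the labelled knockout and 30.1 ± 0.202 RPKM in controls. Sema3a and Sema3d together made up 17.5%, 15.3% and 16.7% of it in labelled-knockout libraries 1 to 3, against 36.2%, 33.0% and 36.2% in controls 1 to 3. Sema3a alone was 9.69 ± 0.160% of the pool in the labelled knockout and 21.1 ± 0.840% in controls. By mean RPKM, Sema3c and Sema3g were the leading class 3 transcripts in both groups, although Sema3a exceeded Sema3g in control 3. Sema3c held 32.4 ± 4.71% of the pool in the labelled knockout and 27.9 ± 3.99% in controls, and Sema3g 36.3 ± 6.40% in the labelled knockout and 24.6 ± 6.75% in controls. Their ranges overlap between the groups. Neither gene was called, and a smaller pool by itself raises the share of a gene whose level stays the same. The order depends on the gene lengths used: in the authors' deposited rounded FPKM, the controls averaged 8.67 for Sema3a, 8.33 for Sema3c and 7.33 for Sema3g.

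**Figure D3:**
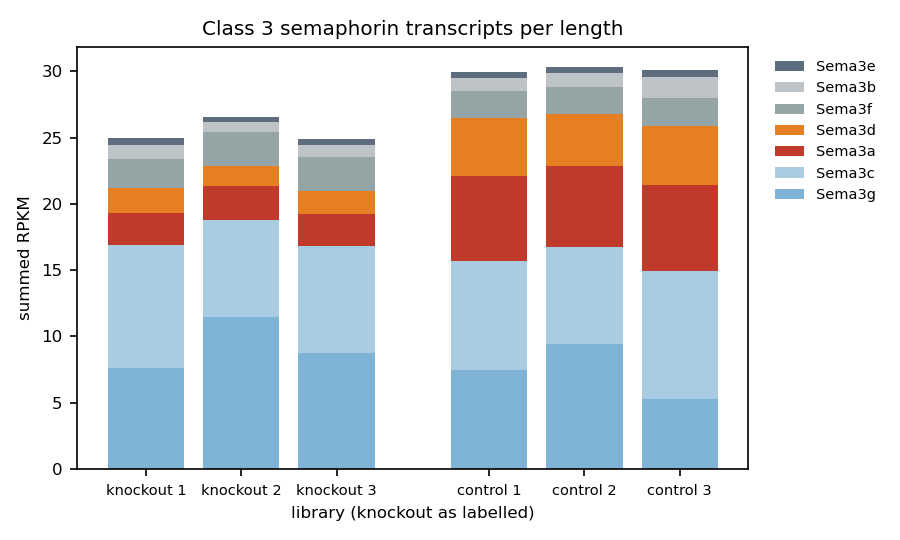
Stacked RPKM (y axis) of the 7 class 3 semaphorins in each of the 3 labelled-knockout libraries (left) and the 3 controls (right). The Sema3a and Sema3d layers are thinner in each labelled-knockout library, and the totals average 25.5 RPKM in the labelled knockout and 30.1 RPKM in controls.

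Sema3d and Sema3a are next to each other in the order of protein-coding genes on mouse chromosome 5, and Sema3e and Sema3c follow (GENCODE M21, GRCm38). This is order and not closeness. The last base before the RefSeq start is 12383165 for Sema3d, 13396783 for Sema3a and 14025275 for Sema3e, so Sema3a starts nearer to Sema3e than to Sema3d. The stretch from Sema3d to Sema3c held 6 tested genes, of which 4 fell, while 5.44% of all tested genes fell. The stretch was picked because Sema3d and Sema3a had fallen, so nothing is read from this count. Besides Sema3d and Sema3a these were Cacna2d1, which encodes a calcium channel subunit, and Hgf, which encodes hepatocyte growth factor. Cacna2d1 was at 49.1 ± 1.72 CPM in the labelled knockout and 59.0 ± 1.57 CPM in controls (log2 −0.26, SE 0.048; edgeR adjusted p 0.00601). Hgf was at 15.0 ± 1.05 CPM in the labelled knockout and 23.9 ± 1.97 CPM in controls (log2 −0.67, SE 0.085; adjusted p 0.000936). Sema3e, which lies between Sema3a and Cacna2d1, and Sema3c, which lies beyond Hgf, were not called (above). Cd36, the fatty acid transporter gene next after Sema3c, was at 2257 ± 166 CPM in the labelled knockout and 1859 ± 200 CPM in controls (log2 0.28, adjusted p 0.0455). Its call was lost without labelled knockout 2 (adjusted p 0.146) or 3 (0.174) and without control 1 (0.102) or 3 (0.0920). These neighbours were looked up after the falls of Sema3a and Sema3d were seen, and no chance level was computed for the run.

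**Figure D4:**
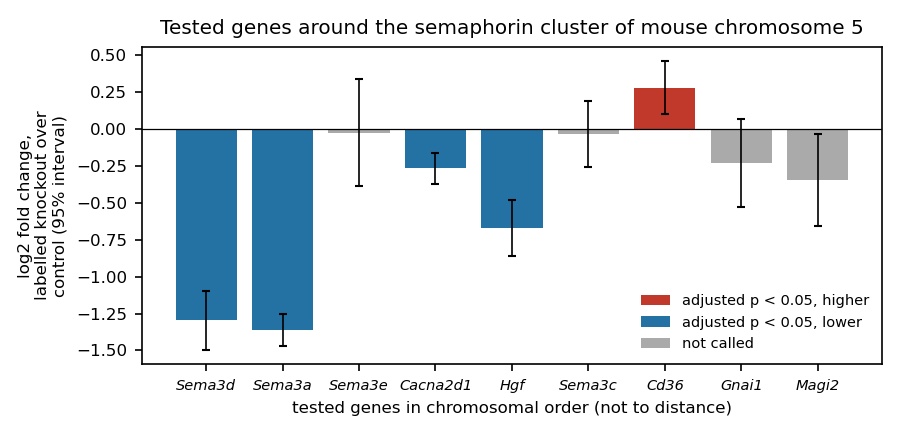
Log2 fold change (labelled knockout over control, y axis, with 95% intervals) of the tested genes from Sema3d to Magi2 in their order on mouse chromosome 5; spacing does not stand for distance. The 2 bars on the left, Sema3d and Sema3a, reach −1.30 and −1.36, while Sema3e and Sema3c lie at −0.02 and −0.03.

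The upstream sequences of Sema3d, Sema3a and Sema3e, which follow one another on the chromosome among the tested genes, are shown because Sema3d and Sema3a fell and Sema3e was not called. Each is the 250 bases before the RefSeq start (GRCm38.p6, plus strand), at chr5:12382916-12383165 for Sema3d, chr5:13396534-13396783 for Sema3a and chr5:14025026-14025275 for Sema3e, and none overlaps an exon in GENCODE M21. Capitals mark matches to a searched motif.
Sema3d: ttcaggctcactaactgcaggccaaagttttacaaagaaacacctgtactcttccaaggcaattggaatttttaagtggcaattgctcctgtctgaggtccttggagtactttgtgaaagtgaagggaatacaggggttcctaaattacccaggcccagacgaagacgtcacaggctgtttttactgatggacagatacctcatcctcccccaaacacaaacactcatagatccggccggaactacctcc
Sema3a: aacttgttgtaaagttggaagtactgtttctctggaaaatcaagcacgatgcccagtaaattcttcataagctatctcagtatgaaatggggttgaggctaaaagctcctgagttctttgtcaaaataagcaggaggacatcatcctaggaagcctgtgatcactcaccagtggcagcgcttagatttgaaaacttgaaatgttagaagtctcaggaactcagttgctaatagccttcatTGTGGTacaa
Sema3e: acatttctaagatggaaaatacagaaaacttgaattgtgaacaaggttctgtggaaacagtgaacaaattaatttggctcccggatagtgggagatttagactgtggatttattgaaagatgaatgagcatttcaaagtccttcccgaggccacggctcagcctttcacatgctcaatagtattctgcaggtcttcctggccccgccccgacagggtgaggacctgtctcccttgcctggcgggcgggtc

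TLE proteins do not bind DNA themselves, so motifs of factor families known to recruit them or to act beside them in fat cells were searched on both strands. These were CCCNNGGG (EBF), TGTGGT (RUNX), CTTTGAT (TCF/LEF) and CACGTG (HES). The Sema3a window held 1 match, to TGTGGT, starting 10 bases before the start, and the Sema3d and Sema3e windows held none of the 4. Over all 32851 RefSeq windows, 14% held TGTGGT, 11.8% CCCNNGGG, 6.02% CACGTG and 3.21% CTTTGAT. Among the 33 windows of the 24 members found in that table, TGTGGT was in 4, CCCNNGGG in 7, CACGTG in 2 and CTTTGAT in 1. The fixed letters of CCCNNGGG are all G or C, and these counts were not adjusted for GC content. A match is a string of letters and does not show binding. GC content was 40.8% for Sema3a, 46.8% for Sema3d and 48.0% for Sema3e, against a median of 52.4% over all windows. Member windows ran from 40.8% to 78.4% (Sema3c), and that of Sema3a was the lowest of the 33.

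Membrane-bound semaphorins moved in both directions. Of 11 tested, Sema4b and Sema6b fell and Sema4a rose. Sema4b, a transmembrane class 4 semaphorin, had 27.2, 26.3 and 25.8 CPM in labelled-knockout libraries 1 to 3, against 39.7, 44.0 and 38.7 CPM in controls 1 to 3. The labelled-knockout values were tight and lay below every control (fold 0.650, log2 −0.62, SE 0.064; edgeR adjusted p 0.000254), and the call held under every setting. Sema6b, a transmembrane ligand of class A plexins, was scarce, with 24, 34 and 33 counts in labelled-knockout libraries 1 to 3 and 76, 62 and 72 counts in controls 1 to 3. On the CPM scale these were 1.50, 2.35 and 2.21 in labelled-knockout libraries, against 4.29, 4.20 and 3.68 in controls. Its fold was 0.498 with a wide interval, from −1.42 to −0.59 on the log2 scale (edgeR adjusted p 0.00705), and it stayed called without each library in turn.

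Sema4a, known from immune cells and the retina and able to bind Plxnd1 and class B plexins, had 13.0, 11.1 and 11.0 CPM in labelled-knockout libraries 1 to 3, against 9.30, 8.33 and 7.61 CPM in controls 1 to 3. The groups lay apart by a narrow gap (fold 1.40, log2 0.48, SE 0.111; edgeR adjusted p 0.0175). The call was lost without labelled knockout 1 (adjusted p 0.0610) and without control 3 (0.0573).

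Another 8 membrane-bound semaphorins were not called, with log2 fold changes from −0.17 for Sema5a to 0.27 for Sema4g. Sema7a, which is held to the membrane by a lipid anchor and binds Plxnc1 and integrins, had 21.9, 30.8 and 25.4 CPM in labelled-knockout libraries 1 to 3 and 25.4, 22.8 and 22.7 CPM in controls 1 to 3 (edgeR adjusted p 0.457). Sema5a, with thrombospondin repeats outside the cell, had 40.9, 33.6 and 39.3 CPM in labelled-knockout libraries 1 to 3 and 39.5, 39.3 and 49.3 CPM in controls 1 to 3 (adjusted p 0.270). Sema6d, a ligand of Plxna1, had 23.1, 27.0 and 25.1 CPM in labelled-knockout libraries 1 to 3 and 29.2, 27.8 and 25.5 CPM in controls 1 to 3 (adjusted p 0.298). In all 3 genes the groups overlap. Sema4c, a ligand of Plxnb2, stood at 16.0 ± 0.968 CPM in the labelled knockout and 17.6 ± 2.35 CPM in controls (adjusted p 0.370). Sema4g, Sema6a, Sema6c and Sema5b had means from 0.748 to 5.82 CPM in the labelled knockout and 0.674 to 4.80 CPM in controls.

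Neither neuropilin was called. Nrp1, which also serves VEGF as a co-receptor, had 397, 436 and 405 CPM in labelled-knockout libraries 1 to 3 and 420, 437 and 423 CPM in controls 1 to 3. Its 95% interval on the log2 scale ran from −0.15 to 0.055 (edgeR adjusted p 0.558), which leaves out a change of the size seen for its ligands Sema3a and Sema3d. Nrp2, the co-receptor of Sema3f and Sema3g, had 304, 325 and 319 CPM in labelled-knockout libraries 1 to 3 and 302, 305 and 289 CPM in controls 1 to 3 (interval −0.014 to 0.18; adjusted p 0.251). The ratio of Nrp1 to Nrp2 RPKM was 1.58, 1.62 and 1.53 in labelled-knockout libraries 1 to 3 and 1.68, 1.73 and 1.77 in controls 1 to 3. The groups do not overlap, but neither gene was called and the ratio was not tested. Among all tested genes, 16.0% were higher and 15.8% lower in the labelled knockout without overlap.

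The plexins that changed, Plxna1 and Plxnd1, rose by a small amount. Plxna1, a signalling partner of Nrp1 for Sema3a, had 285, 275.5 and 282 CPM in labelled-knockout libraries 1 to 3, against 246, 245 and 254 CPM in controls 1 to 3. Plxnd1, the receptor of Sema3e and known in zebrafish for its effect on body fat distribution, had 123, 121 and 130 CPM in labelled-knockout libraries 1 to 3, against 111, 112 and 106 CPM in controls 1 to 3. The groups were separate for each, with folds of 1.13 (log2 0.18, SE 0.039; edgeR adjusted p 0.0152) and 1.14 (log2 0.19, SE 0.045; adjusted p 0.0214). The call of Plxna1 was lost without labelled knockout 3 (adjusted p 0.0833) or control 1 (0.0606). That of Plxnd1 was lost without labelled knockout 3 (0.114), control 1 (0.0586) or control 3 (0.0552), and the members that rose then numbered 1 without labelled knockout 3, control 1 or control 3.

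Of the other plexins, Plxnb2 had 159, 157 and 159 CPM in labelled-knockout libraries 1 to 3 and 176, 157 and 184 CPM in controls 1 to 3. A receptor of class 4 semaphorins, it was called lower only without control 2 (edgeR adjusted p 0.0148; 0.169 with all libraries). Plxna2 had 113, 121 and 124 CPM in labelled-knockout libraries 1 to 3 and 122, 129 and 118 CPM in controls 1 to 3 (adjusted p 0.623). Plxna3 had 23.6, 20.2 and 22.8 CPM in labelled-knockout libraries 1 to 3 and 25.8, 22.0 and 24.3 CPM in controls 1 to 3 (adjusted p 0.393). Groups overlap in these 3 genes. Plxnb1 was low, at 5.89 ± 0.986 CPM in the labelled knockout and 5.52 ± 0.688 CPM in controls. Plxnb3 was also low, at 4.03 ± 0.288 CPM in the labelled knockout and 3.72 ± 1.01 CPM in controls, and per length Plxnb1 and Plxnb3 overlapped (below).

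Plxdc2 and Plxdc1 share a plexin-like domain and have been described as receptors of PEDF, the product of Serpinf1. Plxdc2 had 16.2, 14.8 and 15.3 CPM in labelled-knockout libraries 1 to 3, against 18.4, 18.3 and 25.0 CPM in controls 1 to 3, and control 3 was much higher than the other two controls. The fold was 0.746 (log2 −0.42, SE 0.120; edgeR adjusted p 0.0419). Without control 3 the log2 fold change was −0.25 and the call was lost (adjusted p 0.101), as it was without labelled knockout 1 (0.0641), 2 (0.124) or 3 (0.140) and with limma-voom (0.0523). Plxdc1 was not called, at 3.19 ± 0.888 CPM in the labelled knockout and 2.11 ± 0.370 CPM in controls (adjusted p 0.120). Serpinf1 was at 549 ± 16.6 CPM in the labelled knockout and 571 ± 42.4 CPM in controls (adjusted p 0.558).

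Per length, the leading receptors were more abundant than any ligand in both groups. Nrp1 led with 40.6 to 44.6 RPKM over the 6 libraries. Plxna1 (27.0 to 31.4) and Nrp2 (24.4 to 27.5) overlapped each other, and Plxnb2 (20.3 to 23.9) and Plxnd1 (14.5 to 17.8) came next without overlap. Plxna2 (6.61 to 7.48) and Plxna3 (2.56 to 3.27) followed without overlap, and Plxnb3 and Plxnb1 overlapped each other at 0.409 to 0.719 RPKM. Among ligands, Sema3g (5.31 to 11.5), Sema3c (7.34 to 9.67), Sema7a (6.66 to 9.33) and Sema4b (4.58 to 7.79) were high, and Sema7a overlapped each of the other 3. Sema7a took 7.89 ± 1.35 RPKM in the labelled knockout and 7.17 ± 0.458 RPKM in controls. Sema4b took 4.69 ± 0.120 RPKM in the labelled knockout and 7.23 ± 0.499 RPKM in controls, and Sema3a 2.47 ± 0.0987 RPKM in the labelled knockout and 6.34 ± 0.216 RPKM in controls. By these lengths 19 members reached a mean of 1 RPKM in both groups, and 22 reached 1 in the authors' deposited rounded FPKM, where Nrp1 averaged 69.7 in the labelled knockout and 72.7 in controls.

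**Figure D5:**
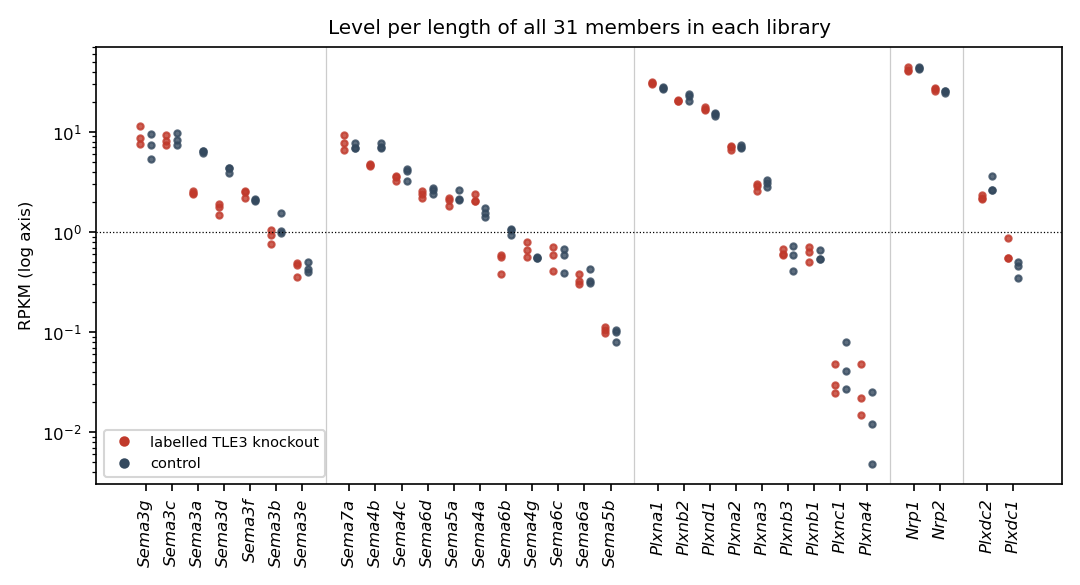
RPKM (y axis, log scale) of all 31 members in each labelled-knockout library (left of each pair) and each control library (right), ordered within roles by level; the dotted line marks 1 RPKM. Neuropilins and 3 plexins lie above the secreted ligands, and Plxnc1 and Plxna4 lie below 0.1 RPKM.

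Ligands were matched to receptors by 37 textbook pairs, with a mean of at least 1 CPM in each group counted as expressed. Both partners were expressed in 29 pairs. The pairs of Sema4d with Plxnb1 and Plxnb2 were among the 37 but could not count as expressed, since Sema4d was not analysed here. For Sema3a the expressed receptors were Nrp1 with Plxna1, Plxna2 and Plxna3, of which Plxna1 rose and the others were not called, while Plxna4 was not expressed. For Sema3d they were Nrp1 and Plxnd1, and for Sema3c Nrp1, Nrp2, Plxna2 and Plxnd1. Sema4a and its listed partner Plxnd1 were each called as risen, and both calls were lost without control 3 (above). A joint change of ligand and receptor was not tested. Sema7a had almost no Plxnc1 (0.286 ± 0.102 CPM in the labelled knockout and 0.409 ± 0.227 CPM in controls) but ample Itgb1, an integrin chain it also binds, at 863 ± 27.6 CPM in the labelled knockout and 976 ± 24.6 CPM in controls. The only partner listed for Sema6b, Plxna4, was below 1 CPM as well. Plxna1, Plxna2 and Plxna3 were expressed but not listed for Sema6b, so the pairs do not show that it lacks a receptor here. Sema4b, which also fell, was in none of the pairs. Whether ligand and receptor sit in the same cells cannot be read from bulk RNA, and in such libraries fewer expressing cells and less RNA per cell cannot be told apart.

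Other genes of the pathway were taken from a list of signalling proteins, co-receptors and further ligands of neuropilins and PLXDC proteins. Of 65 genes listed, 52 were tested, 6 rose (11.5%; 6.91% of all tested genes) and 10 fell (19.2%; 5.44% of all tested genes). Their median log2 fold change was −0.10, against −0.0025 over all tested genes. With library size alone in place of TMM scaling, 3 rose and 14 fell. Among 30 intracellular signalling genes 4 rose and 4 fell (13.3% each way, against the 6.91% and 5.44% of all tested genes). Rnd2, a small GTPase, was at 26.9 ± 1.03 CPM in the labelled knockout and 16.5 ± 1.68 CPM in controls (log2 0.72; edgeR adjusted p 0.000532), and Gipc1, an adaptor that binds the tail of Nrp1, at 77.0 ± 2.95 CPM in the labelled knockout and 65.0 ± 1.44 CPM in controls (adjusted p 0.00757). Mical2, an actin oxidase, fell (log2 −0.21, adjusted p 0.0337) and Farp2, an exchange factor that binds class A plexins, rose (log2 0.24, adjusted p 0.0343). The call of Mical2 was lost without labelled knockout 1 (adjusted p 0.109) or 3 (0.159) and without control 1 (0.0656) or 3 (0.0916). That of Farp2 was lost with DESeq2 (0.0617), with library size alone (0.0530) and without any 1 library other than labelled knockout 2 (0.0539 to 0.103).

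Among 11 co-receptor genes 2 rose and 2 fell (18.2% each way; 6.91% and 5.44% of all tested genes). The integrin gene Itga1 (log2 0.33, edgeR adjusted p 0.00500) and the adhesion gene L1cam (0.53, 0.0450) rose, and Itgb1 (−0.18, 0.0298) and Lrp1 (−0.26, 0.0222) fell. The L1cam call was lost without labelled knockout 1 (adjusted p 0.138) or 3 (0.130), without control 1 (0.145) or 2 (0.0575), and with DESeq2 (0.0777), limma-voom (0.0503) or library size alone (0.0538). The Itgb1 call was lost without labelled knockout 1 (0.104) or 3 (0.142) and without control 1 (0.0755) or 3 (0.0661). The Lrp1 call was lost without labelled knockout 1 (0.0598), 2 (0.0778) or 3 (0.0781) and without control 1 (0.0536). Kdr, the VEGF receptor that pairs with Nrp1, was at 0.529 ± 0.180 CPM in the labelled knockout and 0.840 ± 0.0690 CPM in controls. Among 11 further ligands 4 fell (36.4%; 5.44% of all tested genes): Hgf (above), Pgf (log2 −0.51, adjusted p 0.00804), a VEGF relative that binds neuropilins, and the PLXDC1 ligands Nid1 (−0.21, 0.0105) and Cttn (−0.20, 0.0130). Nid1 and Cttn were not called without labelled knockout 3 (adjusted p 0.0680 and 0.0690). Vegfa, the main neuropilin ligand outside the semaphorins, was at 409 ± 17.4 CPM in the labelled knockout and 384 ± 21.1 CPM in controls (adjusted p 0.272). The pathway genes that fell numbered 2 without labelled knockout 3, 6 without labelled knockout 1 or 2, and 5 without control 1 or 3. Those that rose numbered 3 without labelled knockout 1, labelled knockout 3 or control 1.

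Genes that mark other cell types moved in part. Fibroblast and preadipocyte markers (9 genes) summed to 9048 to 9388 CPM in the labelled knockout and 9110 to 10444 CPM in controls. Pdgfra (log2 −0.38, edgeR adjusted p 0.0134) and Thy1 (log2 −0.42, adjusted p 0.00473) fell (22.2%, against 5.44% of all tested genes). Dlk1 (log2 0.72, edgeR adjusted p 0.00363) rose (11.1%, against 6.91% of all tested genes). Mural markers (7 genes) summed to 1876 to 1929 CPM in the labelled knockout and 1765 to 2040 CPM in controls, mostly Acta2 and Tagln, which were not called. Of these 7, Des (log2 0.64, edgeR adjusted p 0.00131) and Cspg4 (log2 0.56, adjusted p 0.0276) rose (28.6%, against 6.91% of all tested genes). Schwann cell and neuron markers (5 genes) summed to 112 to 118 CPM in the labelled knockout and 134 to 148 CPM in controls. Most of this was Ncam1, at 98.4 ± 3.71 CPM in the labelled knockout and 123 ± 8.58 CPM in controls. Ncam1 fell (log2 −0.32, edgeR adjusted p 0.00478), as 1 of 4 tested genes (25%, against 5.44% of all tested genes). The part of these genes in the changes of the semaphorins was not tested. The calls of these marker genes, and that of Lep above, were not checked without single libraries or under other settings.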

How the data were processed

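The authors deposited whole-number read counts per gene under Ensembl IDs, per the file headers, and beside them FPKM rounded to whole numbers, which were treated here as a score and used only to compare levels. The submitters' processing notes name Novoalign 2.8, Picard, DESeq2 and the build mm9. Which counter, annotation and strand setting were applied is not given in the sources used here. Each listed gene had at least 10 counts in at least 1 library. GENCODE M21 lists opposite-strand genes over parts of Plxna1, Plxna4, Plxnb1 and Sema4c, whose reads may be mixed.

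Counts were fitted with edgeR 4.0.16 in R 4.3.3: expression filter by group (13192 of 13962 genes kept), TMM scaling, quasi-likelihood test of labelled knockout over control with the group alone, and Benjamini-Hochberg adjustment over all tested genes. Rise and fall mean an adjusted p under 0.05. The SE was taken as the size of the log2 fold change over √F. RPKM is CPM per kilobase of merged exons in GENCODE M21. Alternatives were DESeq2 1.42.0, limma-voom (limma 3.58.1), other scaling, no filter, a replicate block and leaving out each library. Scripts were tested on simulated data.

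Members and lists were chosen with earlier results of these data known. Named are all members, with values per library for called members and those with a mean of at least 20 CPM, up to 4 changed genes per pathway list, and Tle3; the neighbours on chromosome 5 were chosen after their values were seen. Chi-square per degree of freedom was 2.95 to 7.87 between libraries of 1 group, so none was treated as a repeat.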

Additional observations from a re-analysis of the deposited data

How the results depend on the processing

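Over 12 alternatives, 322 of 347 member results kept their direction and side of the threshold. The calls of Sema3a, Sema3d, Sema4b and Sema6b held in all, with log2 fold changes of −1.39 to −1.33, −1.37 to −1.20, −0.66 to −0.57 and −1.13 to −0.82. Without single libraries the members that rose numbered 1 to 3 and those that fell 4 to 6, the pathway genes that rose 3 to 5 and those that fell 2 to 12. Such fits have fewer libraries to test with. Pathway genes that rose numbered 3 with library size alone and 3 with DESeq2, against 6; the cause was not tested. Uncalled genes turned direction without single libraries, each with an adjusted p of at least 0.632; over the fits without single libraries their log2 fold changes ran from −0.021 to 0.22 (Plxnb1), −0.067 to 0.32 (Plxnb3), −0.12 to 0.085 (Sema3c), −0.11 to 0.10 (Sema3e), −0.18 to 0.083 (Sema6a), −0.17 to 0.22 (Sema6c) and −0.00043 to 0.25 (Sema7a).

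Deviations of same-numbered libraries correlated at −0.04, 0.19 and 0.03 over genes for numbers 1, 2 and 3. Labelled knockouts 2 and 3 correlated best with the control of their own number and labelled knockout 1 with control 3. Since the correlations for numbers 1 and 3 were near 0, the numbers were not taken as pairs. With the replicate block, 4 members rose and 5 fell (Sema3g was added, adjusted p 0.0459), and 5 pathway genes rose and 12 fell. Sema6b, Plxna4, Plxnc1 and Sema5b rest on few reads, which limits what can be detected.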
